A study of Mus musculus with 17 samples.

Results

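Them7 encodes a member of the thioesterase superfamily, and its RNA was measured as 1 of 27020 genes in 17 livers of mice aged 8 weeks. The gene was chosen because earlier results from these libraries placed it above WT in every group with Khdc3-null ancestors, so its differences from WT are given as descriptions with no test. Acyl-CoA thioesterases cut fatty acyl-CoA into free fatty acid and coenzyme A, the reverse of the step that acyl-CoA synthetases catalyse. In liver this sets how much activated fatty acid is open to oxidation, to lipid synthesis or to bile acid conjugation. The family members Them4 and Them5 are mitochondrial enzymes, while Them7 is known here by its family alone.

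The design text names 4 groups. WT mice descended from WT ancestors (n = 4), and KO mice, null for Khdc3, descended from KO ancestors (n = 3). WT_star females were genetically WT (n = 4) and KO_star females were genetically Khdc3-null (n = 6), and both were born to heterozygous parents with WT as well as KO grandparents. The labels used here give no strain, no litter, no description of the null allele and no sex for the WT and KO mice. Since separate litters are not stated, every p-value reflects the spread among these particular livers. The libraries are named by group and by the number in their titles.

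Reads in genes numbered 17.6 to 26.7 M (mega) per library, and 1 read was worth 0.792 to 1.18 deposited units, so 3 reads, taken as the floor of detection, came to 2.38 to 3.55 units. The labels give the cell type as hepatocyte, and the hepatocyte genes Alb and Hnf4a were abundant in every liver. Some marker sums moved with the groups: 7 hepatocyte genes summed to 2.59 to 2.75 M units in WT and 1.77 to 2.10 M in KO. Most of that sum was Alb, at 1.998 to 2.119 M in WT and 1.266 to 1.48 M in KO. Alb was the 1 of 7 called in KO against WT, and lower. Hnf4a overlapped between these groups, at 18652 to 21067 in WT and 19110 to 19935 in KO. The sums of 6 stellate cell genes were 11292 to 14078 in WT and 8786 to 9254 in KO (1 of 6 called, Pdgfrb, lower), and of 5 cholangiocyte genes 268 to 336 and 365 to 490 (0 of 5 called by limma). The sums of these lists did not overlap between WT and KO, but the share of all genes without overlap was not counted. Sums of B and plasma cell genes (63.8 to 129 in WT, 130 to 141 in KO) did not overlap either. Nor did those of pancreatic acinar genes, nearly all Cela1 (458 to 681 in WT, 276 to 319 in KO). Sums of Kupffer cell, sinusoidal endothelial, T and NK cell, neutrophil, adipocyte and erythroid genes overlapped. The part of these levels in the differences between KO and WT given here was not tested. Other liver cell types were also present, since the summed value of 6 Kupffer cell genes was 3289.5 to 7043. Khdc3 itself had at most 4 reads in any library, with 3 reads over the WT group and 7 over the KO group, so it does not check the genotypes. KO_star 16 stood apart: Pnlip and Prss2, digestive enzymes of the exocrine pancreas, were at 785 and 330 there and at 0 in all other libraries. Some values are given with and without KO_star 16. These include the mean and fold range of Them7, the correlations of named genes among the star livers (as ranges) and the Acss2 calls. Values given once include it.

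Them7 (ENSMUSG00000055312.2) lies on the plus strand of chromosome 2, from 105224320 to 105379796 on GRCm38. Its transcript Them7-201 has 4 exons of 61, 85, 243 and 1167 bases spread over 155.5 kb. The start codon is in exon 2 and the stop codon in exon 4. No other annotated gene overlaps it. The sequence that ends at the base before exon 1 (chr2:105224092-105224319, plus strand, RefSeq on GRCm38.p6) is shown because it is the promoter of the gene whose level differs. Capitals mark the motif AGGTCA, the core that many nuclear receptors bind, on either strand.
Them7 promoter: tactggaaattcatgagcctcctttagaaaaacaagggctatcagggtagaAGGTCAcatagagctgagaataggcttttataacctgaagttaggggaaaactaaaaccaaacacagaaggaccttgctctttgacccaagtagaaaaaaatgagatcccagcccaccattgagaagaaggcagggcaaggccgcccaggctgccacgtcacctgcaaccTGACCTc
The motif begins 177 bases before the start on the plus strand and 7 bases before it on the minus strand. All shares of windows count a match on either strand. AGGTCA occurred in 12.9% of 32851 promoter windows of the same length. TATAAA occurred on the minus strand alone, 151 bases before the start, and in 11.6% of windows. GGGCGG also occurred on the minus strand alone, 36 bases before the start, and in 29.5% of windows. CCAAT (31.9% of windows) and CACGTG (5.26% of windows) did not occur in these letters. The motifs were chosen with the sequence in view, and a match describes letters only.

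Them7 was close to the limit of detection in WT livers and well expressed in the other 3 groups. In deposited normalized values, WT 25, 26, 27 and 28 stood at 3.56, 10.7, 6.85 and 13.2, which were 4, 13, 6 and 13 reads. The 3 KO livers, numbers 30, 31 and 32, stood at 288, 212 and 244. All 3 were above every other library. WT_star 20, 21, 33 and 34 stood at 161, 133, 92.9 and 94.9. The 6 KO_star livers ranged from 68.2 in KO_star 16 to 208 in KO_star 14, with a median of 128. The ranges of WT_star and KO_star overlapped, and neither reached the WT or the KO range. Within KO_star the highest liver had 3.04 times the lowest, or 2.33 times without KO_star 16. For KO_star 16 and KO_star 14 the exact 95% Poisson intervals, which cover counting error only, were 54.5 to 84.2 and 179 to 239. In bulk tissue, fewer cells of a type and less RNA per cell cannot be told apart.

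**Figure D1:**
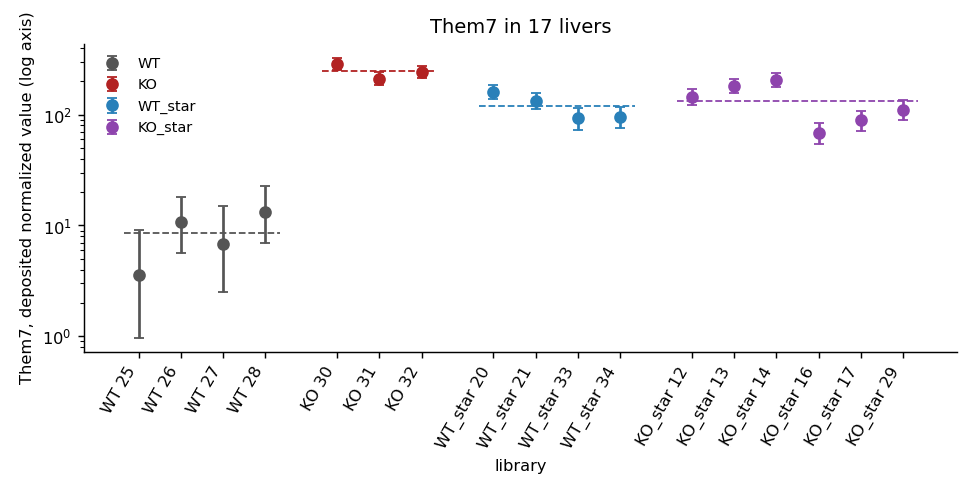
Deposited normalized value of Them7 (log axis) in each of 17 livers, coloured by group, with exact 95% Poisson intervals of the reads and the group mean as a dashed line. The 4 WT livers sit between 3.56 and 13.2, the 3 KO livers between 212 and 288, and the 10 star livers between 68.2 and 208.

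The group means were 8.56 ± 4.23 in WT (SD, n = 4), 248 ± 38.1 in KO (SD, n = 3), 121 ± 32.9 in WT_star (SD, n = 4) and 134 ± 54.4 in KO_star (SD, n = 6). Without KO_star 16 the KO_star mean was 147 ± 49.0 (SD, n = 5). On the log2(value + 1) scale KO exceeded WT by 4.82 (SE 0.39), WT_star exceeded WT by 3.75 (SE 0.36) and KO_star exceeded WT by 3.84 (SE 0.33). These are 28.2-fold, 13.5-fold and 14.3-fold, and the 3 values share the WT livers. Among 16157 genes tested, Them7 had the 5th, 12th and 8th largest rise in the 3 comparisons. Over all genes, 2.89% were called in KO against WT, 0.904% in WT_star against WT and 0.706% in KO_star against WT, at an adjusted p under 0.05 in limma. The choice of Them7 used these contrasts, so nothing is read from its place in them. By that same choice 30 genes were called higher in all 3, of which Them7 had the largest rise in KO, followed by Capn3, a muscle calpain.

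The comparisons among the 3 groups with KO ancestors were not part of the choice. KO_star and WT_star differ in Khdc3 genotype and share their kind of ancestry. Them7 differed between them by 0.08 on the log2 scale (SE 0.33, adjusted p = 0.971 in limma), with a 95% interval of 0.658-fold to 1.71-fold. The exact permutation test, two-sided, gave p = 0.79, where the smallest possible was 0.0095. The interval leaves room for a moderate difference in either direction. In this comparison limma called 0 of 16157 genes (0%), with 1185 at an unadjusted p under 0.05. On recovered reads, edgeR called 0 and DESeq2 called 62.

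KO livers were above both star groups with no overlap. KO_star was below KO by a log2 difference of -0.98 (SE 0.36), so KO was 1.97-fold higher, with a 95% interval of 1.17 to 3.32. In limma it failed adjustment over all genes (adjusted p = 0.168). The exact permutation p was 0.0238, the smallest this design allows, and 0.0714 after adjustment over the 3 comparisons. WT_star was below KO by a log2 difference of -1.06 (SE 0.39), so KO was 2.09-fold higher, with an interval of 1.19 to 3.67. Its adjusted p in limma was 0.213 over all groups and 0.0471 when the WT_star and KO livers were fitted alone. The exact permutation p was 0.0571, again the smallest possible, and 0.0857 adjusted over 3. Over all genes, 1.46% were called in KO_star against KO and 1.4% in WT_star against KO.

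Within 1 Mb of its start the table held 24 genes, of which 14 were tested. In limma Tcp11l1 was the 1 gene called in KO against WT, in the opposite direction, against 2.89% of all genes. In WT_star and KO_star against WT 0 of 14 were called, where 0.904% and 0.706% of all genes were, shares at which few of 14 would be. The median log2 difference of the 14 was 0.07 in KO, 0.14 in WT_star and 0.08 in KO_star, and over all tested genes it was 0.01, 0.00 and 0.00. At an unadjusted p under 0.05 limma had 4, 4 and 2 of the 14. DESeq2 called 2, 0 and 1, and edgeR called 1, 0 and 0. The gene that DESeq2 added was Eif3m, a translation initiation subunit, higher by 0.25 in KO (adjusted p = 0.033) and by 0.24 in KO_star (adjusted p = 0.0233).

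Wt1, a transcription factor whose end lies 50.7 kb before Them7, stood at 24.9, 6.57, 18.3 and 12.2 in WT and at 10.1, 12.4 and 8.86 in KO (log2 difference -0.39, SE 0.54, adjusted p = 0.782 in limma). Rcn1, a calcium-binding protein of the endoplasmic reticulum that begins 6.5 kb after Them7, stood at 139 to 160 in WT and at 146 to 162 in KO (log2 difference 0.05, SE 0.16, adjusted p = 0.926). The ranges overlapped for both flanking genes. Tcp11l1 stood at 505, 368, 321 and 329 in WT and at 173, 120 and 206 in KO, with no overlap (log2 difference -1.20, SE 0.27, adjusted p = 0.0262 in limma). Its call was lost without KO 30, KO 31 or WT 25, where its adjusted p reached 0.141. In WT_star it stood at 279 to 420, which overlapped WT, and in KO_star at 174 to 415.

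From 10 to 15 Mb after the Them7 start, 9 of 49 tested genes were called in KO against WT, 4 in WT_star against WT and 3 in KO_star against WT, where 2.89%, 0.904% and 0.706% of all genes were called. From 15 to 20 Mb the counts were 3, 2 and 2 of 45. Within 5 Mb on either side they were 1, 0 and 0 of 44. The bins were set without regard to values, but this stretch was noticed in these data and the share was not tested. It moved in both directions: Capn3, 15.2 Mb after Them7, was higher in KO by 4.76, and Itpka, an inositol trisphosphate kinase at 14.5 Mb, was lower by a log2 difference of -1.45.

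**Figure D2:**
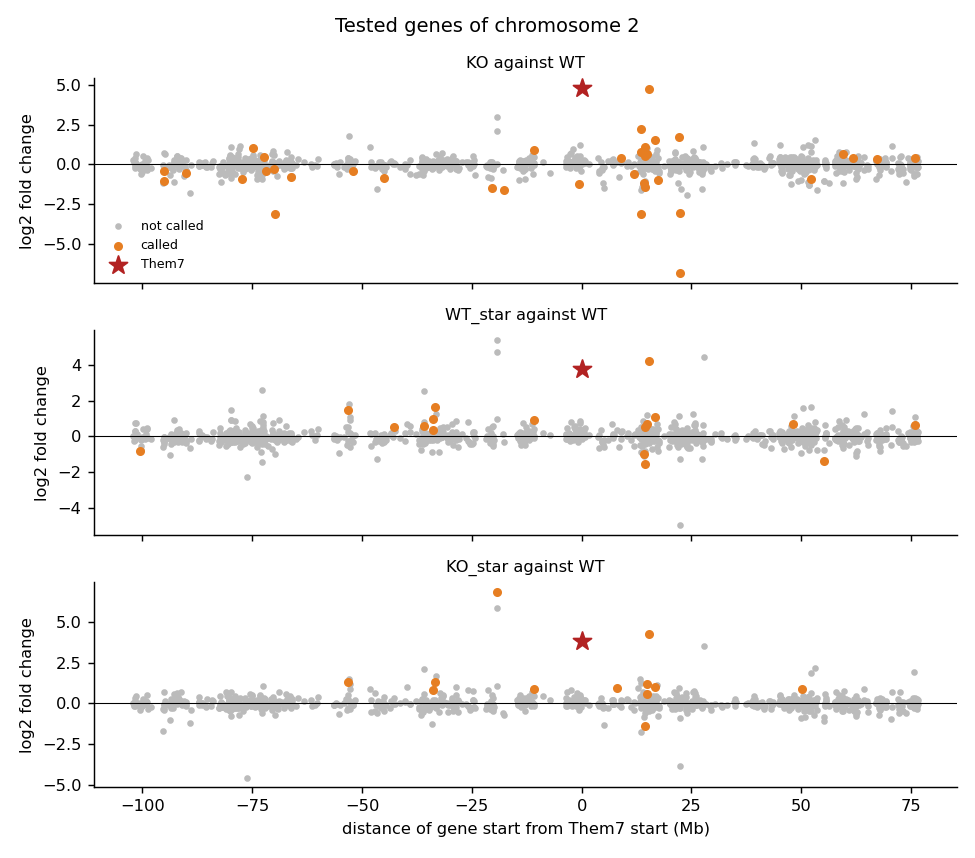
Log2 fold change of each tested gene of chromosome 2 against the distance of its start from that of Them7 (Mb), in KO, WT_star and KO_star against WT. Orange points passed an adjusted p of 0.05 in limma, grey points did not, and the star is Them7, with Tcp11l1 in KO as the 1 other gene called within 5 Mb.

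Of 21 acyl-CoA thioesterase genes listed beside Them7, 20 were in the table and 18 were tested. In KO against WT 2 of 18 were called, Acot2 higher and Them4 lower, against 2.89% of all genes. In WT_star against WT and in KO_star against WT 0 of 18 were called, against 0.904% and 0.706% of all genes, with 3 and 4 at an unadjusted p under 0.05. There edgeR called 0 and 0, and DESeq2 called 2 and 0. The median log2 difference of the 18 was 0.29, 0.05 and 0.03 in the 3 comparisons.

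Acot2, which acts on long-chain acyl-CoA in mitochondria, stood at 106, 117, 79.9 and 77.0 in WT and at 219, 191 and 221 in KO. The groups did not overlap (log2 difference 1.16, SE 0.27, adjusted p = 0.0297 in limma). In WT_star Acot2 stood at 126, 122, 94.1 and 56.7, below every KO liver (log2 difference from KO -1.13, SE 0.27, adjusted p = 0.0477). The KO against WT call was lost in 5 of 7 fits that left out 1 library (all but WT 25 and WT 26), with an adjusted p of up to 0.109. The WT_star against KO call was lost in 6 of 7 (all but WT_star 20), with an adjusted p of up to 0.171, and also when those livers were fitted alone (0.077). Acot2 and its neighbours Acot1 and Acot3 are near copies, so the authors' counting could divide reads among them. Acot12, a cytosolic acetyl-CoA thioesterase, was lower in WT_star than in KO by a log2 difference of -0.50 (SE 0.10, adjusted p = 0.0241), at 2149 to 2542 against 3149 to 3329. That call was lost in 5 of 7 fits that left out 1 library (all but WT_star 21 and WT_star 33), with an adjusted p of up to 0.109.

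Them4 stood at 538, 599, 513 and 592 in WT and at 400, 313 and 392 in KO, the opposite direction to Them7 (log2 difference -0.61, SE 0.12, adjusted p = 0.0117 in limma). The groups did not overlap, and the call was lost without KO 31 (adjusted p = 0.0858). Them4 in WT_star was 445, 522, 392 and 380. In KO_star it ranged from 393 to 499, with a median of 453. Neither star group passed the test against WT, with log2 differences of -0.37 and -0.32. In limma the Khdc3 difference for Them4 was called unlike between the 2 kinds of ancestry, just under the threshold (interaction 0.67, SE 0.16, adjusted p = 0.0488). Over all genes 1.29% were called there. No other setting is given for this call. Them5, a mitochondrial enzyme of cardiolipin remodelling, had a mean of 4.51 and Them6 of 82.8, and neither was called in any of the 6 comparisons.

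Per kilobase of exon and per M reads, Them7 reached 0.256 ± 0.124 in WT (SD, n = 4), 7.83 ± 1.33 in KO (SD, n = 3), 3.73 ± 1.03 in WT_star (SD, n = 4) and 4.08 ± 1.65 in KO_star (SD, n = 6). On this scale of levels it ranked 18th of 21 thioesterase genes in WT, 9th in KO and 12th in each star group. In KO its level lay just below that of the peroxisomal Acot8, at 9.60. Them4, at 4.49, was lower, with other listed genes between it and Them7.

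**Figure D3:**
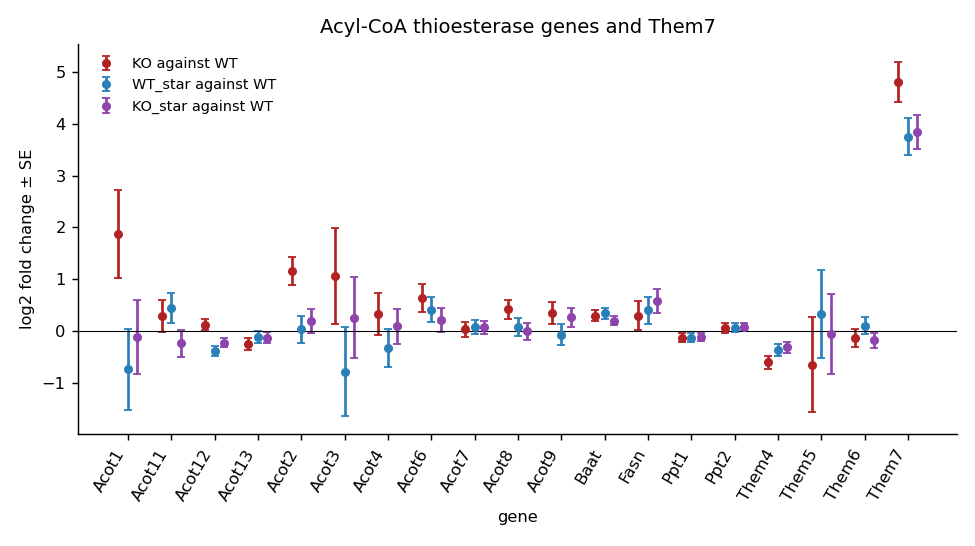
Log2 fold change against WT, with its SE, of 18 tested acyl-CoA thioesterase genes and Them7 in KO, WT_star and KO_star. Them7 lies between 3.75 and 4.82, while the medians of the other 18 genes are 0.29, 0.05 and 0.03.

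Enzymes that make acyl-CoA and those that make or carry coenzyme A were read next. Of 22 synthetase and fatty acid transporter genes, 18 were tested. Acss2, the cytosolic acetyl-CoA synthetase, was the 1 gene called. This was in KO_star against WT (log2 difference 0.89, SE 0.14, adjusted p = 0.0035 in limma) and in KO_star against KO (0.73, SE 0.15, adjusted p = 0.027). The shares of all genes called there were 0.706% and 1.46%. Acss2 stood at 1914 to 2355 in WT, 2045 to 2756 in KO, 2493 to 3492 in WT_star and 3048 to 4910 in KO_star. The KO_star range did not overlap the WT or the KO range, and its highest value was in KO_star 16. Without that liver the differences were 0.82 from WT (adjusted p = 0.00605) and 0.66 from KO (adjusted p = 0.0444). The call against KO was lost without KO 31 (adjusted p = 0.167), without KO 32 (0.113) and when those livers were fitted alone (0.058). In KO against WT 0 of the 18 synthetase genes were called, against 2.89% of all genes, with 5 at an unadjusted p under 0.05 and 0 by edgeR and DESeq2. Of 19 genes of coenzyme A synthesis, breakdown and carriage, limma called 0 in each of the 6 comparisons, with 0 to 6 at an unadjusted p under 0.05. Over all genes those comparisons had 0% to 2.89% called, shares at which 0 of 19 is no result about the list. There edgeR called 0 to 1 and DESeq2 0 to 2.

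Among the 10 star livers, where Them7 varied 3.04-fold (2.33-fold without KO_star 16), its level was set against that of every other gene. A limma slope on Them7 with a term for group called 0 of 16156 genes (0%), with 1224 at an unadjusted p under 0.05 and a smallest adjusted p of 0.205. The genes named here are therefore the most alike in rank and not called followers. Pearson r over 10 livers exceeded 0.8 for 89 genes (0.551%) and was under -0.8 for 54. Without KO_star 16 the counts were 203 (1.26%) and 109. Depth and tissue composition also vary among these livers. The r of Them7 with reads in genes was -0.29 and with the share of reads from albumin -0.45. With the summed stellate cell genes it was -0.67 (-0.49 without KO_star 16), the strongest among the cell type lists. The sums of the other lists had r from -0.57 (pancreatic acinar) to 0.48 (adipocyte), with hepatocyte genes at -0.01. The part of these in the likeness was not tested.

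Of genes with a mean of at least 100, the 10 with the highest r were Cryl1 (0.943), Sulf2 (0.919), Vwa8 (0.916), Gbp11 (0.916), Tdrp (0.911), Simc1 (0.908), Chpt1 (0.907), Kctd15 (0.899), Dpp7 (0.891) and Plin2 (0.888). Cryl1 encodes an L-gulonate dehydrogenase, Sulf2 a heparan sulfate sulfatase, and Chpt1 an enzyme of phosphatidylcholine synthesis. Plin2 coats lipid droplets. Cryl1 ran from 229 in KO_star 16, through a median of 346, to 479 in KO_star 13. Without KO_star 16 r of the 10 genes was between 0.829 for Plin2 and 0.925 for Sulf2, and that of Cryl1 was 0.916. Without KO_star 16 and KO_star 14, the livers farthest from the median of Them7, r of Cryl1 was 0.893. The same removal took Plin2 to 0.736, the lowest of the 10.

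Plin2 was higher in KO than in WT, livers that had no part in choosing it. It stood at 3611, 3824, 3492 and 3231 in WT and at 5754, 6223 and 5119 in KO, with no overlap (log2 difference 0.68, SE 0.15, adjusted p = 0.0179 in limma). Its log2 differences from WT were 0.25 in WT_star (adjusted p = 0.411) and 0.13 in KO_star (adjusted p = 0.711), where Them7 was 13.5-fold and 14.3-fold above WT, and its r with Them7 around the group means of the 7 WT and KO livers was -0.26. The other 9 did not pass that test, with log2 differences from -0.36 for Sulf2 to 0.38 for Kctd15. Of the 20 genes with the highest r at any level, 2 were called in KO against WT, Plin2 higher and Col17a1 lower, and their median log2 difference was 0.13.

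At the other end stood Tmem222 (-0.912), Cenpx (-0.899), Prkab1 (-0.891), Msh5 (-0.888) and Slc35b2 (-0.883). Without KO_star 16 r of these 5 was between -0.922 for Prkab1 and -0.864 for Cenpx. Prkab1 encodes a subunit of AMP-activated kinase, Msh5 a meiotic recombination protein and Slc35b2 the Golgi transporter of the sulfate donor. Msh5 ran from 51.1 in WT_star 20 to 167 in KO_star 16. In WT it stood at 128, 79.7, 115 and 108 and in KO at 17.9, 35.5 and 26.6, with no overlap (log2 difference -2.01, SE 0.41, adjusted p = 0.0152 in limma). Its log2 differences from WT were -0.28 in WT_star (adjusted p = 0.791) and -0.09 in KO_star (adjusted p = 0.947). Slc35b2 also fell in KO (log2 difference -0.38, SE 0.09, adjusted p = 0.023). Of the 20 genes with the lowest r, 4 were called in KO against WT, all lower, namely Itpka, Plxnb1, Slc35b2 and Msh5. Both ends together gave 6 of 40, against 2.89% of all genes. Taken as the 50 highest and 50 lowest they gave 9, and as the 20 at each end by Spearman rank correlation 4. Without KO 30 or without KO 32 the 6 became 2, and without KO 31 or WT 28 they became 3.

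Acot1, a cytosolic long-chain thioesterase and near copy of Acot2, fell into separate sets in the star livers. It stood at 124 to 220 in KO_star 12, 13 and 14 and in WT_star 20 and 21, and at 18.8 to 54.0 in the other 5. The first 5 were also the 5 star livers with the highest Them7. The same sets divided Vwa8 without overlap, at 3529 to 4051 and 2631 to 3265. Tdrp, Simc1, Chpt1, Kctd15 and Dpp7 did likewise. So, in reverse, did Tmem222, Cenpx, Prkab1, Msh5 and Slc35b2. These genes were chosen for their r with Them7, and that r spans both sets, so it ranks likeness only. No r is given for Acot1. Of the 5 livers low in Acot1, 4 also stood apart on the second principal component of all tested genes. That component held 15.6% of the variance among star livers. KO_star 17 and 29 and WT_star 33 and 34 lay between -36.0 and -20.3 on it and the other 6 between 10.5 and 21.9, and r with Them7 was 0.59, or 0.91 without KO_star 16. The labels give no batch or litter for these numbers. In KO Acot1 stood at 340, 345 and 349 and in WT at 63.1, 205, 95.9 and 60.8 (log2 difference 1.87, SE 0.85, adjusted p = 0.282 in limma).

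**Figure D4:**
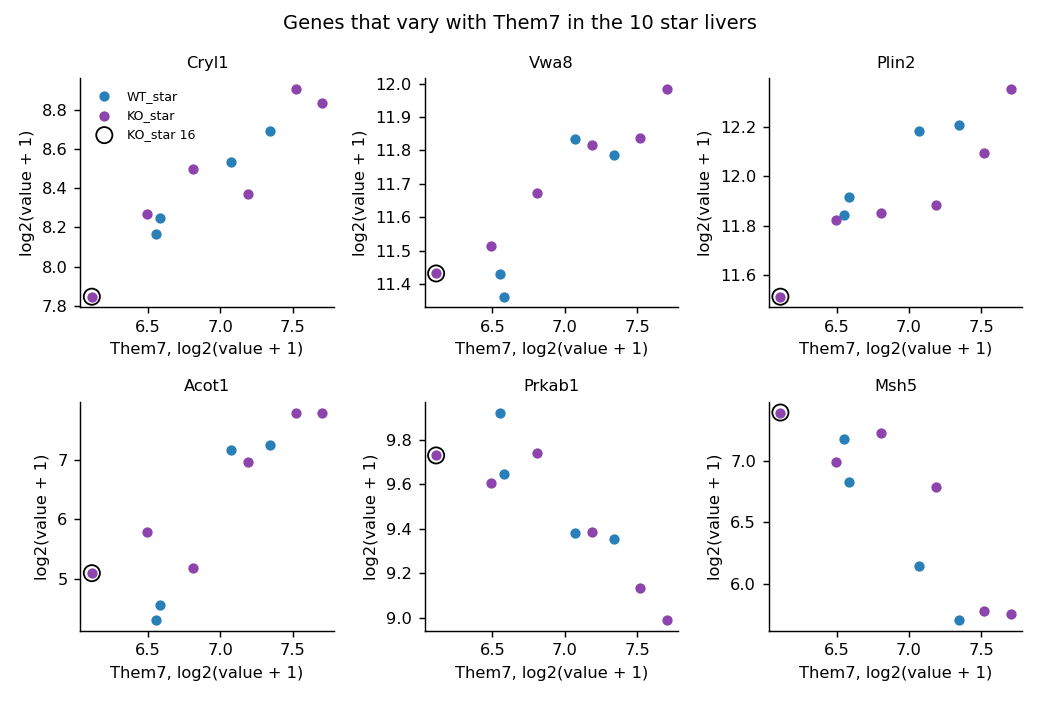
Log2(value + 1) of 6 genes against that of Them7 in the 10 star livers, coloured by group, with KO_star 16 ringed. Cryl1, Vwa8, Plin2 and Acot1 are higher where Them7 is higher, and Prkab1 and Msh5 are lower. Acot1, Vwa8, Prkab1 and Msh5 divide into the same sets of 5 livers without overlap, as does Them7.

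Over all 17 livers the genes most like Them7 were those that also separated WT from the rest. The 10 with the highest r among genes with a mean of at least 100 were Cyp2c68 (0.966), Acad10 (0.931), Kdm2b (0.929), Zfp874a, Rnf187, Guk1 and Eif3j1 (0.906 each), Gsto1 (0.894), As3mt (0.888) and Habp4 (0.881). These livers form separate clusters, WT and the other 13, so r over 17 ranks likeness only. Within the 13 livers with KO ancestors r fell to 0.654 for Cyp2c68 and -0.15 for As3mt, and was 0.840 for Acad10, 0.850 for Eif3j1 and 0.870 for Gsto1. Acad10 belongs to the acyl-CoA dehydrogenase family, Gsto1 is a glutathione transferase and Cyp2c68 is a cytochrome P450 with near copies whose reads may be divided.

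Eif3j1, a subunit of a translation initiation complex encoded 16.8 Mb after Them7, has a near copy, Eif3j2. It stood at 168, 163, 200 and 172 in WT, at 558, 484 and 463 in KO, and at 480, 508, 234 and 318 in WT_star. In KO_star it ran from 260 in KO_star 16, through a median of 368, to 450. Every liver with KO ancestors was above every WT liver, but the KO and WT_star ranges overlapped, unlike those of Them7. The 100 genes with the highest r over 17 livers included 14 on chromosome 2, which holds 7.37% of tested genes, and 16 on chromosome 17 (4.48%), 11 on chromosome 13 (4.19%) and 11 on chromosome 19 (3.32%). Of the 14 on chromosome 2, 9 lay 13.5 to 16.8 Mb after Them7. Eif3m was the 1 gene of the 14 within 1 Mb of it, with r of 0.84 over 17 livers and 0.42 over 13.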

How the data were processed

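Total RNA was depleted of ribosomal RNA and sequenced as stranded libraries (per the labels' protocols). Cutadapt, HISAT2 and DESeq2 were used on the build GRCm38, per the submitters' processing notes. How reads were counted, with which annotation and strand setting, is not stated. The authors deposited a normalized signal, reads per gene over a size factor of the library. Whole reads were recovered for 100.0% of values within 0.001 reads. Of the identifiers, 26963 matched GENCODE release 21 (mouse), used for positions and exon length.

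Here limma 3.58.1 (R 4.3.3, statmod 1.5.0, trended robust variance) fitted group means to log2(value + 1) in all 17 libraries together. The filter required 10 units or more in 3 or more libraries, and two-sided p-values were adjusted (Benjamini-Hochberg) over 16157 genes and a threshold of 0.05. Folds come from that scale, so low genes change by more than stated. edgeR 4.0.16 and DESeq2 1.42.0 on recovered reads were alternatives, with other pseudocounts (0.5 and 5), filters, quantile normalization, library weights, fits of the compared libraries alone, and each library left out. The limma contrast of KO against WT and the slope on Them7 were also run on simulated counts. There Them7 was set far higher and more variable than in these livers, so that run does not check the slope at its real level. All 30 pairs of libraries within a group differed by more than sampling noise (chi-square per degree of freedom 8.53 to 101.68).

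Named genes are Them7, called or flanking genes within 1 Mb, called members of the 3 enzyme lists with Them4, Them5 and Them6, and the genes of highest or lowest r. Col17a1, Itpka, Plxnb1, Capn3 and Acot1 were named after their values were seen. The members and lists were chosen with earlier results of these data known. Correlations carry no p.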

Additional observations from a re-analysis of the deposited data

Results flagged for a closer look

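Of 75 groups of 4 or more livers examined among the named genes, 2 held a liver far from the others. Chance alone gives about 1 in 20, a larger share. Wt1, the gene before Them7, was at 2.12 in KO_star 14, where the next lowest KO_star value was 13.5. The value of 2.12 is under the floor of 3 reads, which was 3.18 units in that library. Tmem222 was at 355 in WT 25, where the next highest WT value was 331. Of 24 genes examined for a Khdc3 difference that depended on ancestry, Them4 was called, where 1.29% of all genes were. Its log2 difference was -0.61 between KO and WT and 0.06 between KO_star and WT_star, a gap of 0.67 (SE 0.16, adjusted p = 0.0488 in limma, just under the threshold). The genes named as most like Them7 over all 17 livers were not among the 24. In limma all of them but Rnf187 (adjusted p = 0.0689) passed, from 0.000226 for Cyp2c68 to 0.0305 for Habp4. They were chosen for a pattern over these groups, so nothing is read from those calls.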

How the results depend on the processing

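Them7 stayed above WT under the settings tried, by 4.27 to 4.91 in KO, 3.23 to 3.84 in WT_star and 3.32 to 3.97 in KO_star, and by 4.50 to 5.05, 3.44 to 3.99 and 3.52 to 4.07 with each library left out. KO_star against WT_star, near 0, became -0.047 with library weights and ran from -0.062 to 0.256 with each library left out. KO_star against KO (-0.98) passed the exact permutation test, unadjusted (p = 0.0238), and its adjusted p was 0.113 to 0.425 with a library left out, over differences of -1.12 to -0.81. WT_star against KO (-1.06) passed when those livers were fitted alone (adjusted p = 0.0471), and its adjusted p was 0.212 to 0.465 with a library left out, over -1.21 to -0.95. Called neighbours within 1 Mb in KO numbered 2 with DESeq2 and 2 with library weights, and 0 to 1 with a library left out. In WT_star they numbered 2 with library weights and in KO_star 1 with DESeq2. Called thioesterases in KO numbered 4 when KO and WT were fitted alone and 0 to 2 with a library left out (0 without KO 31), and in WT_star 2 with DESeq2, 1 with library weights and 0 to 1 with a library left out. Likest star genes called in KO numbered 2 to 5 with a library left out, and 4 when chosen without KO_star 16, a choice made after seeing the data. Genes with a slope on Them7 numbered 0 to 3 with a library left out (3 without KO_star 17, 1 without WT_star 21). Acot2 in WT_star against KO (adjusted p = 0.077) and Acss2 in KO_star against KO (0.058) missed the threshold when the compared livers were fitted alone. The causes were not tested. No paired analysis was possible because the groups share no replicate numbers. WT levels of Them7 rest on 36 reads in all, which limits the precision of every fold against WT.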
